A study of Mus musculus with 6 samples.

Results

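The genes of the AP-1 transcription factors Jun, Junb, Jund and Fos, and the gene Gdf15 near Jund, were examined for acetylation of histone H3 at lysine 27 (H3K27ac) in the mouse macrophage line RAW264.7. Members were all H3K27ac peaks that overlapped 1 of 4 windows of build mm39. The windows were chr8:71045000-71160000 for Gdf15 to Jund (115 kb), chr8:85692000-85716000 for Junb (24 kb), chr4:94920000-94955000 for Jun (35 kb) and chr12:85505000-85540000 for Fos (35 kb). They held 22 of 25666 peaks in Bmal1KO, 29 of 24477 in Mfp2KO and 22 of 29276 in WT, or 73 of 79419 in all. The loci were chosen by earlier H3K27ac tag values of these same lists, so the tags, ranks and calls below describe the windows and test nothing.

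The ChIP-seq series compared cells lacking Bmal1 (Bmal1KO), cells lacking Mfp2 (Mfp2KO) and wild-type cells (WT), with 1 H3K27ac library and 1 input library for each genotype, 6 in all. BMAL1 pairs with CLOCK to drive circadian transcription, and MFP2 works in peroxisomal β-oxidation. All cells were grown in DMEM with 5% serum. The titles call the WT cells naive, a word that the knockout titles lack. The labels do not explain this word, and they name no stimulus. Clonal origin of the knockout lines is not given either. The ChIP libraries held 12.5 M tags in Bmal1KO, 15.8 M in Mfp2KO and 15.8 M in WT, of which 37.35%, 57.15% and 38.71% lay in peaks. A tag is an aligned read as counted by the authors' peak caller, and values are tags per 10 M tags of the library. With 1 library per genotype no difference between genotypes could be tested. The 95% intervals given are exact, while for a count of 0 the upper limit is taken as 3 counts of the total, and all cover counting error only. In such bulk libraries, fewer cells that carry the mark and less of it per cell cannot be told apart. No annotation of build mm39 was used, so peaks are placed by their distance from the start of a window and are not assigned to a gene. For the same reason the cell type and the knockouts were not checked at their marker or target genes, and other AP-1 family genes were not analysed here.

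AP-1 is a dimer of basic leucine zipper proteins. JUN, JUNB and JUND pair among themselves or with FOS proteins, and the dimers bind short palindromic sites in promoters and enhancers. Jun, Junb and Fos are immediate early genes, switched on within minutes of growth factor or inflammatory signals through MAP kinases, whereas Jund is expressed more steadily. In macrophages AP-1 shares many enhancers with the lineage factor PU.1 and acts downstream of Toll-like receptors. Gdf15 encodes a secreted cytokine of the TGF-β superfamily that is induced by cell stress and is known in macrophages. H3K27ac marks active promoters and enhancers. In the RefSeq gene order, Gdf15 and Jund are separated by the coding genes Pgpep1 and Lsm4, Junb lies between Prdx2 and Hook2, and Fos is followed by Jdp2 and Batf, which encode further partners of AP-1 dimers.

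All 5 genes matched the RefSeq promoter table, which is of build GRCm38.p6, with 6 start sites. The 250 bases before each start were searched on both strands for 6 motifs: the E-box CACGTG bound by BMAL1 with CLOCK, the AP-1 site TGACTCA, the CRE TGACGTCA, its core TGACGT (which every CRE contains), the site TGACATCA known from the Jun promoter, and the TATA box TATAAA. The 3 promoters with a match are shown with the matches in capitals, each 5′ to 3′ on the strand of its gene.
Jun, chr4:95052223-95052472 (GRCm38.p6, minus strand): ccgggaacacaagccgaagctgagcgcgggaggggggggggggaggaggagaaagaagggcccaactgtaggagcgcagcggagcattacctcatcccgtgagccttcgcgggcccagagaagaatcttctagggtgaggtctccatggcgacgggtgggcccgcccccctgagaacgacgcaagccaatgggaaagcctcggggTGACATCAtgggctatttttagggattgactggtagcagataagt
Fos, chr12:85473640-85473889 (GRCm38.p6, plus strand): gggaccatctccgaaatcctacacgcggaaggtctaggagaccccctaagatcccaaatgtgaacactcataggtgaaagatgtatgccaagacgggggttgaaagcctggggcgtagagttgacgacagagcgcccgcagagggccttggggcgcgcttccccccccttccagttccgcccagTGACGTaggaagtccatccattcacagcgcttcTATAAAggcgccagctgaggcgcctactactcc
Gdf15, chr8:70632096-70632345 (GRCm38.p6, minus strand): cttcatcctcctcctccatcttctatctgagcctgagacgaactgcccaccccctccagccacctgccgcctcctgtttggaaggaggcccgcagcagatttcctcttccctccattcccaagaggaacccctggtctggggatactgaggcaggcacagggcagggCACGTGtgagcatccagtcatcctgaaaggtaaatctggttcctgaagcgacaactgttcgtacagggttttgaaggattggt
The Jun promoter held TGACATCA from base 45 to base 38 before the start, a motif present in 2.93% of all 32851 promoters searched. The Fos promoter held TGACGT from base 66 to base 61, present in 6.47% of promoters, and TATAAA from base 33 to base 28, present in 12.4%. The second Gdf15 start had an E-box from base 83 to base 78, present in 6.02% of promoters. The listed starts of Junb and Jund and the first of Gdf15 held none of the 6 motifs in these 250 bases. The table gives 1 start for Jund, and whether it is the start used in these cells was not checked. TGACTCA and TGACGTCA, in 4.46% and 1.55% of all promoters, were found in none of the 6 members. Because the peaks are in another build, these sequences were not placed against the peaks, and a match is a description of letters only.

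Across the 4 windows the acetylation was strongest by total in the Gdf15 to Jund window and weakest in the Jun or Fos window. The windows differ in length, at 115 kb for Gdf15 to Jund, 24 kb for Junb and 35 kb for Jun and for Fos. This order of totals is thus not an order per kb. The Gdf15 to Jund window held 5335 tags (5209 to 5465) in Bmal1KO, 8628 (8484 to 8774) in Mfp2KO and 4839 (4731 to 4949) in WT. The Junb window held 3084 tags (2987 to 3182) in Bmal1KO, 6102 (5980 to 6224) in Mfp2KO and 2192 (2120 to 2266) in WT. These were among the strongest stretches of the genome in each list. The genome was also cut into adjoining tiles of the same length, which can include parts of the loci themselves. Of the 7071 tiles of 115 kb with a peak in every list, 2 held more tags than the Gdf15 to Jund window in Bmal1KO, 3 in Mfp2KO and 1 in WT. Of 13659 tiles of 24 kb, 4 held more tags than the Junb window in Bmal1KO, 3 in Mfp2KO and 33 in WT. The Jun and Fos windows stood out less. Of 11935 tiles of 35 kb, 719 held more tags than the Jun window in Bmal1KO, 314 in Mfp2KO and 2025 in WT. For the Fos window these counts were 849, 273 and 639. Tiles lie on a fixed grid whereas the windows were placed on the loci, which can favour the windows.

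The Jun window held 924 tags (871 to 979) in Bmal1KO, 1894 (1826 to 1963) in Mfp2KO and 606 (569 to 646) in WT. The Fos window held 868 tags (817 to 921) in Bmal1KO, 1981 (1912 to 2051) in Mfp2KO and 964 (916 to 1013) in WT. Mfp2KO was thus the highest library in each window. Bmal1KO was above WT in the Gdf15 to Jund, Junb and Jun windows and below it in the Fos window. In Bmal1KO and Mfp2KO the Jun and Fos windows held tags with overlapping counting intervals, whereas in WT Fos was above Jun.

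**Figure D1:**
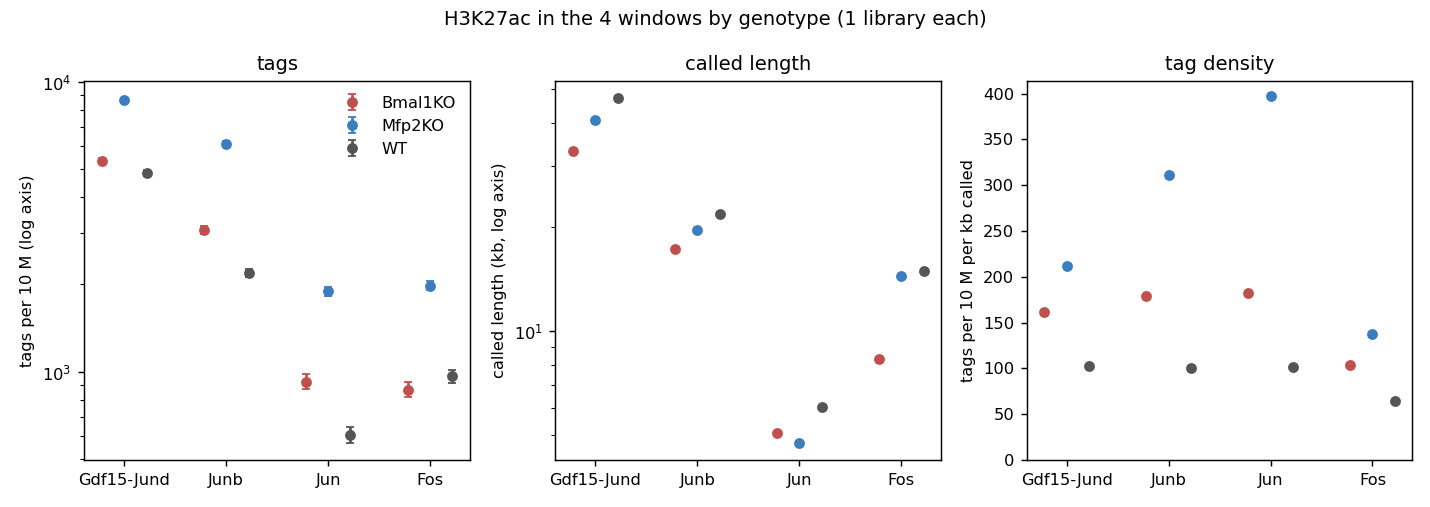
Tags per 10 M (left, log axis, bars are 95% Poisson intervals), called length in kb (middle, log axis) and tags per 10 M per kb of called sequence (right) in the 4 windows, for 1 library of each genotype. Mfp2KO has the most tags in every window, at 8628, 6102, 1894 and 1981, while WT has the longest called sequence, and the 3 WT windows other than Fos sit at almost the same density.

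Because Mfp2KO had more of its tags in peaks, ratios to WT were read against the other regions of the genome. Peaks of the 3 lists that overlapped by at least 1 bp were merged into 39754 regions, of which 14789 were called in every list. Their median log2 tag ratio to WT was -0.19 in Bmal1KO and 0.44 in Mfp2KO. The ratio also varied with strength: in the 10% of these regions with most tags, 1479 regions, the medians were 0.19 and 0.76. Scaling to the tags in peaks instead of all tags would lower every Mfp2KO log2 ratio by 0.56 and raise every Bmal1KO one by 0.05. Comparisons with WT for Bmal1KO and Mfp2KO share the same WT libraries and are given side by side.

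The Jun and Junb windows had the highest ratios in both knockouts. The log2 tag ratio of the Jun window was 0.61 (0.48 to 0.73) in Bmal1KO and 1.64 (1.54 to 1.75) in Mfp2KO, or 1.74 times and 2.30 times WT relative to the median region. For the Junb window it was 0.49 (0.43 to 0.56) in Bmal1KO and 1.48 (1.42 to 1.53) in Mfp2KO, or 1.61 times and 2.05 times WT on the same footing. Relative to the median of the strongest 10% of regions, these values came down to 1.33 times and 1.85 times for Jun and 1.23 times and 1.65 times for Junb. Of the tiles of equal length, 84.5% had a lower Bmal1KO ratio than Jun and 88.4% a lower Mfp2KO ratio. Such ratios were thus not rare among tiles of all strengths. For Junb the same shares were 79.8% and 84.5%. Among the strongest 10% of regions, the shares below the main domain were 77.3% and 94.1% for Jun and 76.7% and 92.4% for Junb.

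As a total, the Gdf15 to Jund window had ratios near the median of the strongest 10% of regions. Its log2 ratio was 0.14 (0.09 to 0.19) in Bmal1KO and 0.83 (0.79 to 0.87) in Mfp2KO, or 0.963 times and 1.06 times WT relative to the strongest 10% of regions. This total mixes unlike parts. In the 4 regions with most tags the log2 ratio of the sums was 0.39 in Bmal1KO and 0.93 in Mfp2KO. In the other 8 called in every list it was -1.13 and 0.52. Of the tiles of equal length, 63.5% had a lower Bmal1KO ratio than the window and 65.1% a lower Mfp2KO ratio. In the Fos window the log2 ratio was -0.15 (-0.26 to -0.04) in Bmal1KO and 1.04 (0.95 to 1.13) in Mfp2KO. Relative to the median of all regions, Fos was at 1.03 times and 1.51 times WT, and relative to the strongest 10% at 0.787 times and 1.22 times.

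Called sequence was shorter in the knockouts in every window, and held more tags per kb. With only peaks of at least 8-fold over input, the length in the Gdf15 to Jund window was instead greater in Mfp2KO than in WT, at a log2 ratio of 0.51 against -0.21 with all peaks. In the Gdf15 to Jund window 33.1 kb was called in Bmal1KO, 40.8 kb in Mfp2KO and 47.0 kb in WT. The Junb window had 17.2, 19.6 and 21.8 kb and the Jun window 5.08, 4.76 and 6.03 kb in the same order of Bmal1KO, Mfp2KO and WT. The Fos window differed most in Bmal1KO, with 8.32 kb in Bmal1KO, 14.4 kb in Mfp2KO and 14.9 kb in WT. Relative to WT, called length lay between 55.7% (Fos) and 84.3% (Jun) in Bmal1KO and between 79.0% (Jun) and 96.4% (Fos) in Mfp2KO. Over the whole lists it was 69.9% and 69.3%.

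Tag density set the windows apart most clearly in Mfp2KO. In tags per kb of called sequence, the order in Bmal1KO was Jun at 182 (171 to 192), Junb at 179 (174 to 185), Gdf15 to Jund at 161 (157 to 165) and Fos at 104 (98.3 to 111), where the intervals of Jun and Junb overlap. The Junb value in Bmal1KO leaves out a peak of 88.6 tags per kb just beyond the window, whose counterparts in Mfp2KO and WT are counted. In Mfp2KO it was Jun at 397 (383 to 412), Junb at 311 (305 to 317), Gdf15 to Jund at 212 (208 to 215) and Fos at 138 (133 to 143), with no overlap between neighbours in the order. In WT the Gdf15 to Jund, Jun and Junb windows had 103 (101 to 105), 101 (94.3 to 107) and 100 (97.1 to 104) tags per kb, with overlapping counting intervals, and Fos had 64.6 (61.4 to 67.9). Density depends on how much weak flanking sequence a list calls, so a shorter call alone gives a higher density. At the median of the strongest 10% of regions the log2 density ratio to WT was 0.39 in Bmal1KO and 1.04 in Mfp2KO. It was 0.85 and 1.98 in the Jun window, 0.84 and 1.63 in the Junb window, 0.65 and 1.04 in the Gdf15 to Jund window, and 0.69 and 1.09 in the Fos window.

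In the Gdf15 to Jund window most of the tags lay in a few regions. The 3 lists gave 19 regions there, 12 of them called in every list. The strongest, chr8:71145392-71154140, began 100 kb into the window, towards the Jund end by the order of the genes. It held 2121 tags in Bmal1KO, 2870 in Mfp2KO and 1775 in WT, all but 16.8 of the Mfp2KO tags in 1 peak. Among the peaks of its own list that lead peak ranked 18th by tags in Bmal1KO, 25th in Mfp2KO and 31st in WT, and 6857 bp of it were common to all lists, or 98.1%, 97.1% and 90.9% of its length. Its log2 ratio was 0.26 (0.18 to 0.33) in Bmal1KO and 0.69 (0.63 to 0.76) in Mfp2KO. In the strongest 10% of regions 54.1% had a lower Bmal1KO ratio and 46.5% a lower Mfp2KO ratio, so this domain lay in the middle of strong regions.

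The second domain, chr8:71058928-71065492, began 13.9 kb into the window and held 1682 tags in Bmal1KO, 2783 in Mfp2KO and 1154 in WT. Its log2 ratio was 0.54 (0.45 to 0.63) in Bmal1KO and 1.27 (1.19 to 1.35) in Mfp2KO. A region at 79.7 kb, chr8:71124666-71129279, held 508 tags in Bmal1KO, 595 in Mfp2KO and 315 in WT, and the region at 0.400 kb held 533, 786 and 456. In these 4 regions both knockouts were above WT, with log2 ratios of 0.23 to 0.69 in Bmal1KO and 0.69 to 1.27 in Mfp2KO. Over all regions called in every list, 58.4% held fewer tags than WT in Bmal1KO and 36.5% in Mfp2KO. In the strongest 10% the median log2 ratios were 0.19 and 0.76, so tags above WT were the more common case there. The 4 regions made up 90.8% of the tags of the window in Bmal1KO, 81.5% in Mfp2KO and 76.5% in WT, over 20.1, 20.1 and 20.3 kb.

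The other 8 regions called in every list together held 492 tags over 13.0 kb in Bmal1KO, 1542 tags over 18.5 kb in Mfp2KO and 1076 tags over 24.0 kb in WT. In Bmal1KO 7 of the 8 were below WT and 1 above, with log2 ratios from -2.85 to 0.52, and in Mfp2KO 4 were below and 4 above, from -2.35 to 2.30. Of all regions called in every list, 58.4% held fewer tags in Bmal1KO than in WT and 36.5% fewer in Mfp2KO than in WT. Without the strongest 10% these shares were 60.7% and 39.4%, so fewer tags in Bmal1KO was the more common case among weaker regions. Tags were counted only in called sequence, so where a knockout list called a shorter stretch the ratio compares unequal lengths. At 22.1 kb the region held 117 tags over 3109 bp in Bmal1KO, 515 tags over 5016 bp in Mfp2KO and 270 tags over 5491 bp in WT, with log2 ratios of -1.21 (-1.49 to -0.93) and 0.93 (0.76 to 1.10). At 36.3 kb it held 143 tags in Bmal1KO, 298 in Mfp2KO and 241 in WT.

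The widest gap between the knockouts in this window lay 87.5 kb from its start, at chr8:71132484-71136298. This region held 12.4 tags over 626 bp in Bmal1KO, 324 tags over 3640 bp in Mfp2KO and 65.9 tags over 2019 bp in WT. The log2 ratio to WT was -2.41 (-3.23 to -1.60) in Bmal1KO and 2.30 (1.99 to 2.62) in Mfp2KO. The region with the lowest Mfp2KO ratio, at 33.2 kb, held 37.1 tags in Bmal1KO, 20.3 in Mfp2KO and 104 in WT, so it was low in both knockouts.

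**Figure D2:**
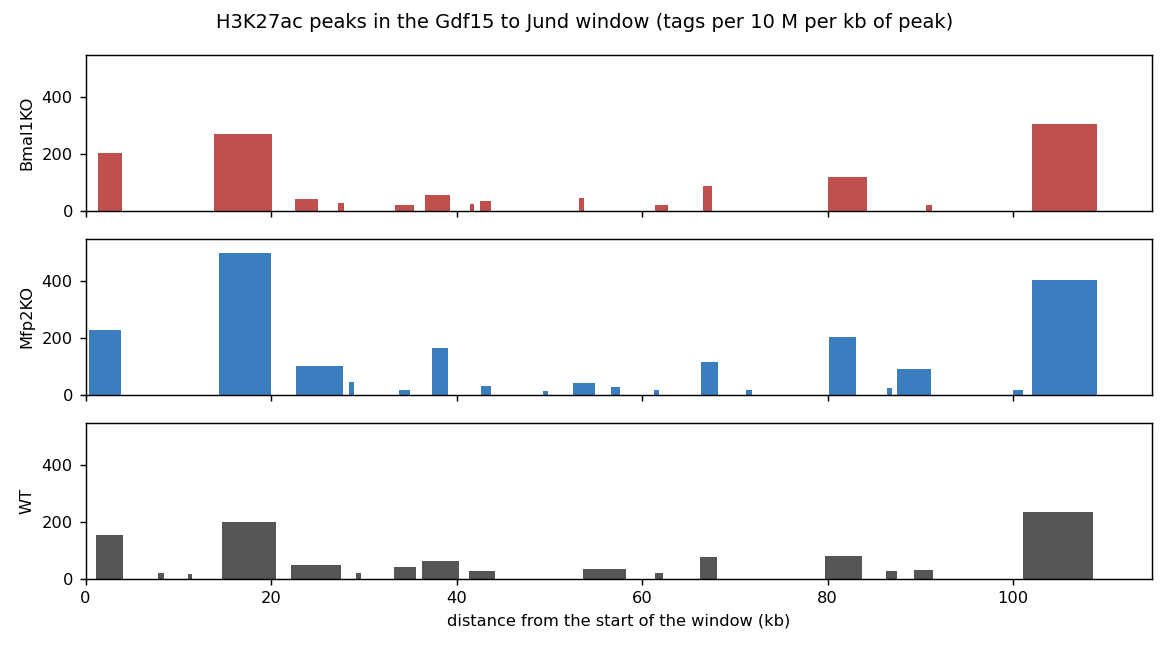
H3K27ac peaks of the Gdf15 to Jund window in Bmal1KO (top), Mfp2KO (middle) and WT (bottom). The x axis is the distance from the start of the window in kb, the width of a bar is the peak and its height the tags per 10 M per kb of that peak. The domain 100 kb into the window and the one at 13.9 kb dominate in every genotype, and Bmal1KO has the fewest peaks, 14 against 18 in Mfp2KO and 16 in WT.

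Junb carried the strongest single peak of the 4 windows in both knockouts, while in WT the domain near the end of the Gdf15 to Jund window, at 1775 tags, was slightly above it. The domain chr8:85701010-85714734, 9.01 kb into the window, was 1 peak in each list, with 2634 tags over 12791 bp in Bmal1KO, 5174 tags over 12548 bp in Mfp2KO and 1740 tags over 13724 bp in WT. By tags it ranked 6th in Bmal1KO, 5th in Mfp2KO and 36th in WT, in lists of different lengths. Its edges were almost the same in the 3 lists, with starts within 313 bp and ends within 863 bp of each other. The log2 ratio was 0.60 (0.52 to 0.67) in Bmal1KO and 1.57 (1.51 to 1.63) in Mfp2KO, and among the strongest 10% of regions 76.7% and 92.4% had a lower value.

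Next to it, the region chr8:85691504-85697727 was split into 2 peaks in Bmal1KO with 450 tags and 3 in Mfp2KO with 679 tags, and was 1 peak in WT with 330 tags. The region chr8:85715329-85718260, at the far edge of the window, held 165 tags in Bmal1KO, 248 in Mfp2KO and 122 in WT. The Mfp2KO and WT peaks there reach into the window and are members, while the Bmal1KO peak begins 387 bp beyond it and is not counted in the totals of the window. Its 165 tags over 1859 bp are thus missing from the Bmal1KO tags, length, density, input and shared sequence of Junb. With only the part of each peak inside the window, the Junb log2 tag ratio was 0.54 in Bmal1KO and 1.48 in Mfp2KO. All 3 Junb regions were above WT in both knockouts. Over all regions called in every list, 58.4% held fewer tags than WT in Bmal1KO and 36.5% in Mfp2KO. In the strongest 10% the median log2 ratios were 0.19 and 0.76, so tags above WT were the more common case there.

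Jun had a single domain in each list. It spanned 5084 bp with 924 tags in Bmal1KO, 4764 bp with 1894 tags in Mfp2KO and 6032 bp with 606 tags in WT, within chr4:94937823-94943855. The domain ranked 395th by tags in Bmal1KO, 127th in Mfp2KO and 1150th in WT. The WT call extended beyond those of the knockouts, and 4560 bp were common to all lists, or 89.7%, 95.7% and 75.6% of the domain in Bmal1KO, Mfp2KO and WT. Among the strongest 10% of regions 77.3% had a lower Bmal1KO ratio and 94.1% a lower Mfp2KO ratio. No other peak lay in the window.

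The 2 main regions of the Fos window differed in their ratios to WT. The first, chr12:85514217-85523098, held 554 tags in Bmal1KO, 1368 in Mfp2KO and 488 in WT, with log2 ratios of 0.18 (0.03 to 0.33) and 1.49 (1.37 to 1.61). The second, chr12:85531133-85539206, held 314 tags in Bmal1KO, 603 in Mfp2KO and 476 in WT, with log2 ratios of -0.60 (-0.78 to -0.42) and 0.34 (0.20 to 0.48). Relative to the median region, the first was at 1.30 times WT in Bmal1KO and 2.06 times in Mfp2KO, and the second at 0.753 times and 0.931 times. Each region was 2 peaks in each knockout and 1 peak in WT. The second covered 3631 bp in Bmal1KO, 6180 bp in Mfp2KO and 8073 bp in WT. A peak of 10.1 tags at 4.34 kb was called in Mfp2KO alone. Just outside the window, before its start, a Bmal1KO peak of 71.4 tags lay 1669 bp away and an Mfp2KO peak of 277 tags 1894 bp away, while the nearest WT peak on that side held 48.4 tags at 12606 bp. After the end of the window the nearest peaks held 9.57 tags in Bmal1KO, 11.7 in Mfp2KO and 23.1 in WT, at 3796, 21239 and 3578 bp. None of these is counted here, and with windows 20 kb longer on each side the Bmal1KO log2 ratio of Fos was -0.27.

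**Figure D3:**
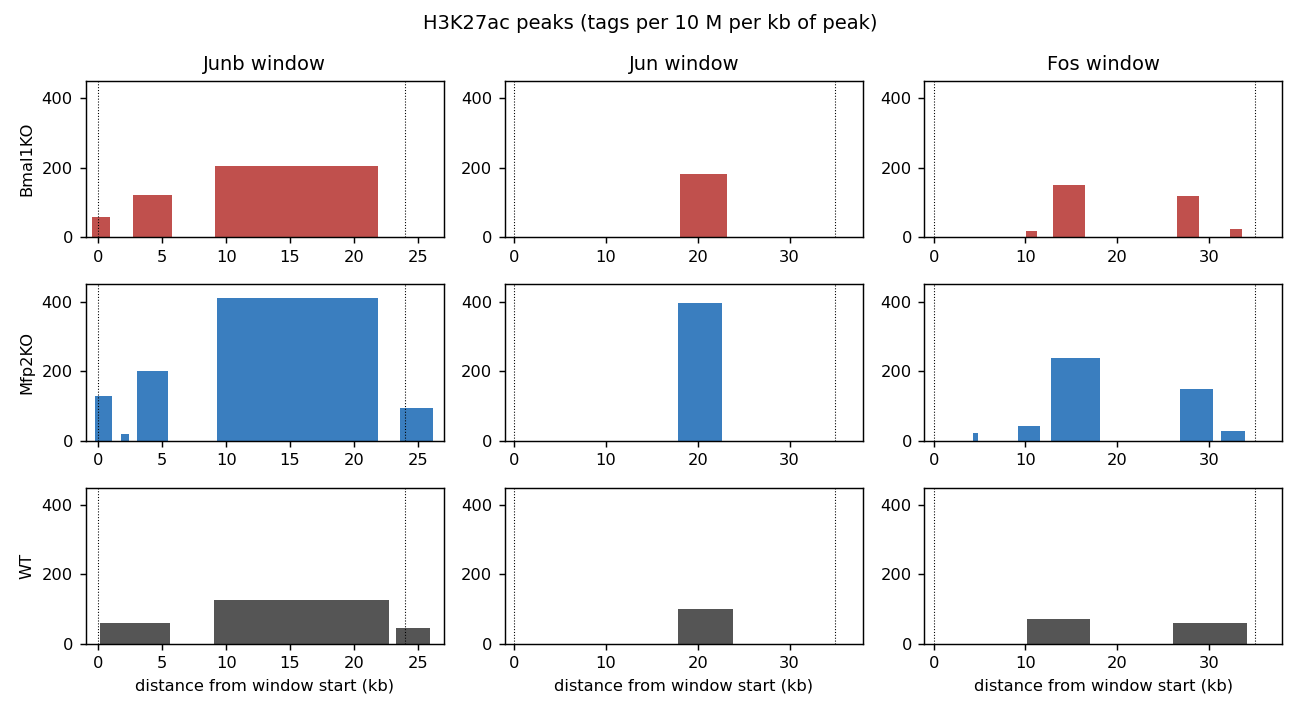
H3K27ac peaks of the Junb, Jun and Fos windows (columns) in Bmal1KO (top), Mfp2KO (middle) and WT (bottom), drawn as tags per 10 M per kb of peak against the distance from the window start in kb, with dotted lines at the window edges. The wide Junb domain and the single Jun domain are tallest in Mfp2KO, and the second Fos region is short in Bmal1KO.

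Counted over the 4 windows, 18 of 26 regions were called in every list. Relative to the median region, 7 of the 18 were at least 1.5-fold higher in Bmal1KO than in WT and 5 at least 1.5-fold lower, against 24.5% and 26.3% of all 14789 regions. In Mfp2KO 6 of the 18 were higher and 4 lower, against 29.8% and 32.8% of all regions. Among the strongest 10% of regions the shares were 35.7% higher and 5.07% lower in Bmal1KO and 32.0% and 6.56% in Mfp2KO. Only 5 of the 18 regions belong to that strongest 10%, and nothing particular to the AP-1 windows is read from these counts. By window, the 7 regions higher in Bmal1KO were 3 in Gdf15 to Jund, 3 in Junb and 1 in Jun, and all 5 lower ones lay in Gdf15 to Jund. Among the 3 in Gdf15 to Jund, the weak region chr8:71106299-71107836 held 25.9 tags in Bmal1KO and 18.0 in WT. Its log2 ratio of 0.52 had a wide counting interval, -0.25 to 1.31. In Mfp2KO the 6 higher ones were 2 in Gdf15 to Jund, 2 in Junb, 1 in Jun and 1 in Fos, and the 4 lower ones again lay in Gdf15 to Jund.

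**Figure D4:**
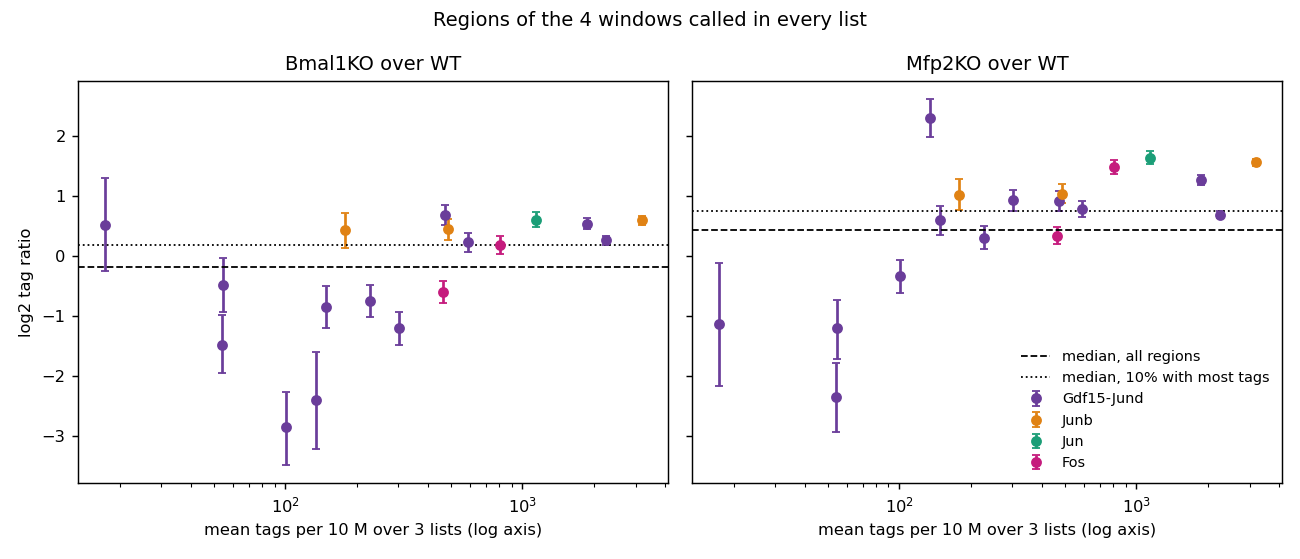
Log2 tag ratio to WT of the 18 regions called in every list, in Bmal1KO (left) and Mfp2KO (right), against the mean tags per 10 M over the 3 lists (log axis). Bars are exact 95% counting intervals, and the lines are the medians of all 14789 regions (dashed, -0.19 and 0.44) and of the 10% with most tags (dotted, 0.19 and 0.76). The Junb and Jun regions lie above both lines in both knockouts, and the weak regions of the Gdf15 to Jund window spread from -2.85 to 0.52 in Bmal1KO and from -2.35 to 2.30 in Mfp2KO.

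Few peaks of these windows were missing from a list, and those that were missing were weak. Of the 22 WT peaks, 4 had no Bmal1KO peak, or 18.2% (exact interval 5.19 to 40.3), against 38.9% of all WT peaks. No Mfp2KO peak overlapped 3 of them, or 13.6% (2.91 to 34.9), against 41.4%. Neither knockout had a peak at 3, against 31.1% of all WT peaks. These 3 held 13.3, 7.92 and 9.81 tags in WT, and the fourth, at 86.3 kb, had no Bmal1KO peak and held 12.7 tags in Mfp2KO and 32.9 in WT. All 4 lay in the Gdf15 to Jund window. Of the 10 WT peaks of at least 8-fold over input, 0 lacked a Bmal1KO peak and 0 an Mfp2KO peak, each allowing a share of up to 30.0% by a limit of 3 counts. Over all WT peaks of that strength the shares were 24.7% and 27.9%, within that limit. In the other direction, 0 of 22 Bmal1KO peaks lacked a WT peak, which by the limit of 3 counts allows a share of up to 13.6%, against 23.6% of all Bmal1KO peaks. In Mfp2KO 4 of 29 did, against 25.4%, and the strongest of these held 21.9 tags. Peaks of 1 window are neighbours and not independent, so the intervals are too narrow for the loci as a group. The windows were also chosen by tags of these lists, and stronger peaks were missing less often over all WT peaks. These shares therefore describe the windows and test nothing.

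Most of the sequence called in the knockouts was also called in WT, while a smaller share of the WT sequence was called in the knockouts. Of the Bmal1KO sequence 91.6% in the Gdf15 to Jund window, 95.5% in Junb, 100% in Jun and 99.0% in Fos was also called in WT, against 84.3% over the whole list. As shares of the WT sequence these were 64.4%, 75.2%, 84.3% and 55.2%, against 58.9%. Of the Mfp2KO sequence, 82.7%, 96.3%, 100% and 82.4% was called in WT, against 79.4% over the whole list, and as shares of the WT sequence 71.7%, 86.6%, 79.0% and 79.5%, against 55.0%.

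Input tags took no part in the choice of windows, although a call needed enrichment over input. Input tags per kb of called sequence were set against the median region called in every list, which had 5.82 in Bmal1KO, 8.43 in Mfp2KO and 5.76 in WT. The Gdf15 to Jund window was at 1.60, 1.51 and 1.58 times that median in Bmal1KO, Mfp2KO and WT. Junb was at 1.81 times in Bmal1KO, 1.84 in Mfp2KO and 1.47 in WT, and Jun at 2.32, 1.93 and 1.73 times. Fos was at 1.57 times in Bmal1KO, 1.01 in Mfp2KO and 1.07 in WT. Relative to that median, input was higher in both knockouts than in WT for Junb and Jun, where ChIP tags were also higher. For Fos it was higher in Bmal1KO, where ChIP tags were lower. For Gdf15 to Jund it was close to WT in both knockouts, where ChIP tags were higher. No interval was computed for input, which rests on few tags. For Jun these were 68.6 per 10 M in Bmal1KO, 77.6 in Mfp2KO and 60.2 in WT. Any link between input and ChIP tags was not tested. The strongest 10% of regions had more input in general, with medians of 8.76 in Bmal1KO, 15.0 in Mfp2KO and 8.65 in WT. Against these, Jun was at 1.54, 1.08 and 1.15 times and Junb at 1.20, 1.03 and 0.980 times. On that footing Gdf15 to Jund was at 1.06, 0.846 and 1.05 times and Fos at 1.04, 0.566 and 0.714 times. Jun in Mfp2KO, at 1.08 times, was then slightly below WT, at 1.15 times. Input per kb of called sequence depends on the length called. The input of the Junb window in total was 181 tags per 10 M in Bmal1KO, 305 in Mfp2KO and 185 in WT. With input subtracted from the ChIP tags, the log2 ratio was 0.65 in Bmal1KO and 1.73 in Mfp2KO for Jun, and 0.53 and 1.53 for Junb.

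Enrichment over input was higher in the knockouts in all 4 windows, and so was the median fold of their whole lists. ChIP tags over input tags, both per 10 M, were 17.3-fold in Bmal1KO, 16.6-fold in Mfp2KO and 11.3-fold in WT in the Gdf15 to Jund window. In the Junb window they were 17.0-fold, 20-fold and 11.8-fold, and in the Jun window 13.5-fold, 24.4-fold and 10.1-fold. In the Fos window they were 11.4-fold, 16.2-fold and 10.5-fold. No interval was computed for these folds. The Fos values of Bmal1KO and WT lie close together and rest on 76.0 and 92.2 input tags per 10 M. Over single peaks the authors' fold over input ran from 4.46 to 30.1 in Bmal1KO, from 4.22 to 24.4 in Mfp2KO and from 4.17 to 18.3 in WT, where the limit for a call was 4 and the medians of the whole lists were 7.74, 8.46 and 7.12.

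**Figure D5:**
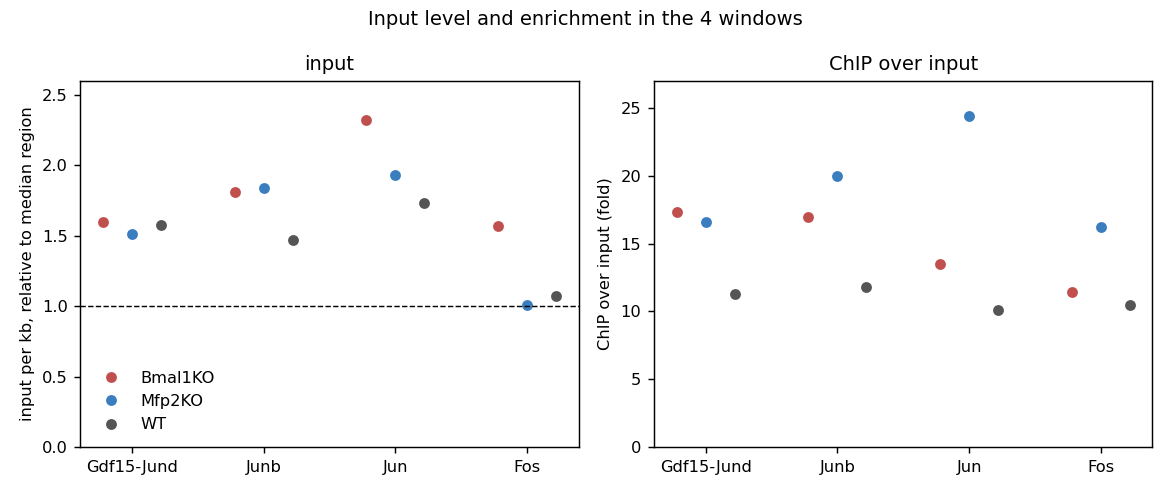
Input tags per kb relative to the median region called in every list (left, dashed line at 1) and ChIP over input in fold (right) for the 4 windows, in Bmal1KO, Mfp2KO and WT. Input is highest in the Jun window, at 2.32, 1.93 and 1.73 times the median region, and WT has the lowest fold over input in every window.

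The 3 regions outside the windows whose tags in the 3 lists were most like those of the strongest Gdf15 to Jund region were compared by Euclidean distance on the log2 scale. They were chr10:120307823-120315090 with 2295 tags in Bmal1KO, 3042 in Mfp2KO and 1790 in WT, chr7:132722076-132727545 with 2208, 3087 and 1658 tags, and chr11:70542578-70549180 with 2230, 3164 and 1838 tags. The distances were 0.14, 0.16 and 0.17 over 3 libraries, with 1 library a genotype.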

How the data were processed

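H3K27ac ChIP-seq of RAW264.7 cells was analysed from 3 deposited peak lists, 1 per genotype, each from 1 ChIP library and the input of its genotype. Per the file headers, HOMER findPeaks was run in histone style: it stitched 500 bp windows that passed a p-value limit of 0.001, and required 4-fold enrichment with a p-value below 0.0001 against input. A window needed 9 tags in Bmal1KO and 10 tags in Mfp2KO and WT. The submitters' processing notes name HOMER 5.1 and also MACS3 3.0.3, Picard 3.4.0, SAMtools 1.23, fastp 1.0.1, BWA 0.7.19-r1273 and the build mm39. The deposited tag values are a signal, scaled by the authors to 10 M tags of the library. The deposited fold over input is a ratio of depth-scaled tags. No result rests on the deposited score or the deposited p-value of a peak. Per the file headers, the columns of ChIP and input tags are scaled to 1 of the libraries (12.5 M tags in Bmal1KO, 12.8 M in Mfp2KO and 14.9 M in WT), from which input was put on the scale of 10 M tags.

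Whole peaks that overlapped a window by at least 1 bp were counted, and peaks were merged across lists by the same overlap. In each window, up to 6 regions with at least 50 tags in any list are given with their values, with the strongest region of each kind called in 1 or 2 lists. Others were named after their values were seen. Exact Poisson intervals for tags and conditional exact binomial intervals for ratios were computed with scipy 1.17.1, pandas 2.3.3 and numpy 2.4.6, with functions checked on simulated data. Alternatives changed the scaling, the fold limit, the window edges, the overlap, the merging and the subtraction of input. Members, lists and comparisons were chosen with earlier results of these data known. The strongest 10% of regions (mean of at least 642 tags), the tiles and the division of the Gdf15 to Jund regions into 4 and 8 were added with the values in view.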

Additional observations from a re-analysis of the deposited data

How the results depend on the processing

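With 1 library per genotype, no replicate could be left out. No paired analysis was possible because each genotype has 1 ChIP library and the result comes from no test. Of 89 alternative values, 64 stayed within the counting interval (tags) or within 1.5 times (length and counts of peaks), 24 moved and 1 reversed. Scaling to the tags in peaks lowered all Mfp2KO log2 ratios by 0.56 and raised those of Bmal1KO by 0.05. In Mfp2KO the window ratios were then 0.27 (Gdf15 to Jund), 0.91 (Junb), 1.08 (Jun) and 0.48 (Fos), and those of the strongest regions 0.13, 1.01, 1.08 and 0.93. The Bmal1KO ratio of Gdf15 to Jund was then 0.19. With peaks of at least 8-fold over input only, the window ratios that moved were 0.35 in Bmal1KO and 1.11 in Mfp2KO for Gdf15 to Jund, and 0.90 in Mfp2KO for Fos. Called length in Mfp2KO then reversed in the Gdf15 to Jund window, to a log2 ratio of 0.51, and went to -0.74 in the Fos window, against -0.21 and -0.05 with all peaks. By construction fewer peaks are left at that limit, 10 of the 22 in WT. With windows 20 kb longer on each side, the Bmal1KO ratios were 0.57 (Junb), 0.46 (Jun) and -0.27 (Fos), and the Mfp2KO ratio of Jun was 1.43 and its length ratio -1.13, since further peaks enter. With input subtracted, Gdf15 to Jund was at 0.19 in Bmal1KO and 0.88 in Mfp2KO. At 8-fold or more, 0 WT peaks lacked a peak in Bmal1KO, in Mfp2KO or in both, and with longer windows 5 lacked one in Mfp2KO. Peak lists show no tags outside calls, so a missing peak is not a missing mark.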
